A study of Caenorhabditis elegans with 6 samples.

Results

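The genes described here encode the peptide messengers of Caenorhabditis elegans: every gene whose WormBase symbol begins with flp-, ins- or nlp-, apart from nlp-27, nlp-28, nlp-29, nlp-30, nlp-31 and nlp-34, which were left out by the rule that defines the set. The rule goes by the symbol alone, though it was set with earlier results of these data known. They numbered 134 of the 22010 genes quantified, of which 31 were flp genes, 38 were ins genes and 65 were nlp genes. Their transcripts were compared between 3 libraries of the WT strain and 3 of the pals-25(icb98) strain, each made from total RNA of whole uninfected animals grown at 20°C on E. coli OP50 to L4, the last larval stage. The icb98 allele, recovered in an EMS mutagenesis screen, is a Q293* premature stop codon near the end of the PALS-25 protein, and the comparison asks what this gain-of-function allele alters without a pathogen. Both strains, WT included, carry icbIs4, an integrated transgene with GFP under the chil-27 promoter and mCherry under the col-12 promoter. The WT labels name N2 beside this transgene. The mutant is represented by 1 strain from the screen, so a difference between groups cannot be told apart from other differences between the 2 strains. The labels call the replicates biological without describing separate cultures, so each test measures the spread between these libraries.

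Neuropeptides and insulin-like peptides are made as longer precursors, which are cut by proprotein convertases, trimmed and often amidated, and released from dense core vesicles. The flp genes encode FMRFamide-related peptides and the nlp genes encode neuropeptide-like proteins of many unrelated kinds, both of which act largely through G protein-coupled receptors on neurons, muscle and other tissues. A few nlp genes are instead expressed in the epidermis, where some are induced by infection or wounding. The ins genes encode insulin-like peptides that act as agonists or antagonists of the insulin receptor DAF-2 and are made in neurons, intestine and other tissues.

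Libraries held 40709626 to 47297002 estimated counts. WT replicate 2 stood apart. Among 14011 genes with at least 1 CPM (TMM-normalised counts relative to library size), it was more than 2-fold away from WT replicate 1 at 2002 genes and from WT replicate 3 at 1770 genes. WT replicates 1 and 3 were that far apart at 7 genes, and the pairs of mutant libraries at 7 to 20. Many values are therefore given both with all libraries and without this one.

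Few of the peptide genes differed between the genotypes. Of the 134, 114 had enough counts to be tested, and 4 of these were higher in pals-25(icb98) at an adjusted p under 0.05 (edgeR, Benjamini-Hochberg over all genes tested): nlp-67, ins-7, nlp-25 and nlp-36. None was lower in the same edgeR test, with 3 lower and 10 higher at an unadjusted p under 0.05, a level that 3208 and 2620 of the 16166 genes passed. DESeq2 called 1 lower (ins-33) and limma-voom called none lower. The called share was 3.51% of the tested members, whereas 20.5% of all 16166 tested genes were called, 9.8% higher and 10.7% lower. The tested members had a lower median level, 4.08 CPM against 12.2 CPM over all tested genes. Their median standard error of the log2 change was 0.17, against 0.16. The part of level in the lower called share was not tested. The 3 mutant libraries lay all above or all below the 3 WT libraries at 28 members (24.6%), 23 of them above and 5 below. Over all tested genes this share was 49.3%, with 24.4% above and 24.8% below. Without WT replicate 2, 16 members were called higher and 2 lower, while 37.4% of all genes were called, 19.3% higher and 18.1% lower. In whole-animal RNA, fewer cells of a type and less RNA per cell cannot be told apart.

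The 3 families differed most in spread. The fitted log2 changes of the 30 tested flp genes ran only from -0.11 to 0.30, with a median of 0.06. Those of the 23 tested ins genes ran from -1.08 to 1.73, with a median of 0.10. The 61 tested nlp genes ran from -0.51 to 2.05, with a median of 0.04. The median over all tested genes was 0.01. Family medians stayed above 0 in all 15 fits that were run, between 0.03 and 0.13 for flp, 0.06 and 0.27 for ins and 0.01 and 0.12 for nlp. A difference larger than 0.5 on the log2 scale, called or not, was fitted for 0 flp genes, 9 ins genes (39.1%) and 6 nlp genes (9.84%), against 28.8% of all tested genes. Expression level and precision moved with the family: the median level was 16.9 TPM (counts divided by effective length and scaled to a common total, a level per unit length) for tested flp, 6.47 TPM for ins and 10.6 TPM for nlp, and the median standard error of the log2 change was 0.12, 0.22 and 0.18 in the same order. The part of level and precision in the difference in spread was not tested.

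**Figure D1:**
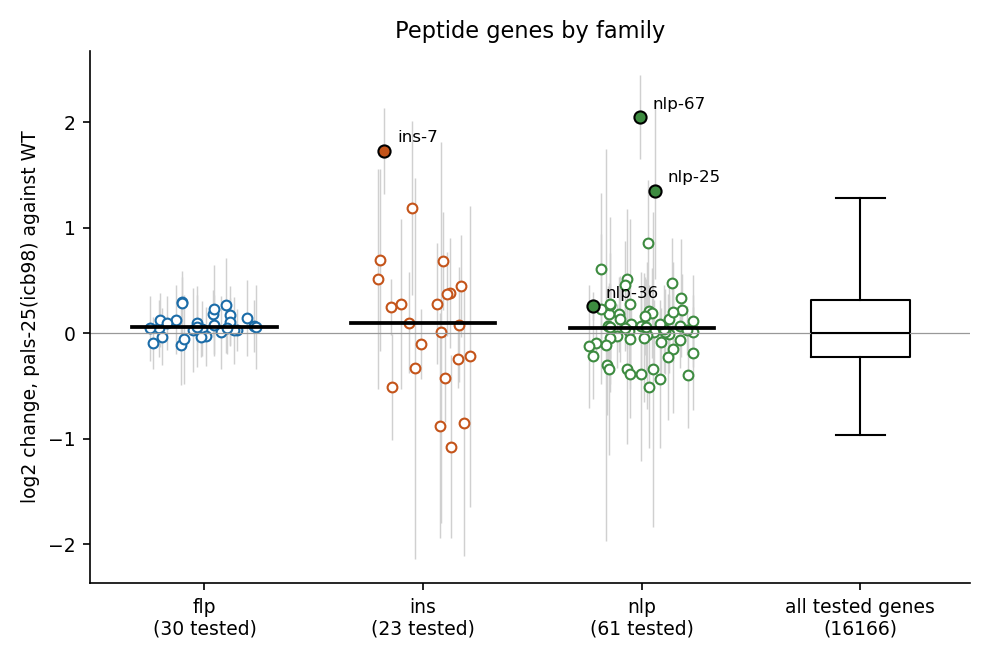
Log2 change of each tested gene in pals-25(icb98) against WT for the flp, ins and nlp families, 1 point per gene, with genes called by edgeR marked. The flp points span -0.11 to 0.30, whereas the ins points span -1.08 to 1.73 and the nlp points -0.51 to 2.05.

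The total amount of transcript in each family moved little. The summed flp level was 659, 728 and 649 TPM in WT replicates 1 to 3 and 741, 743 and 677 TPM in the mutant replicates. The summed ins level was 186, 252 and 205 TPM in WT and 211, 212 and 206 TPM in the mutant. For both families the groups overlapped, with WT replicate 2 the highest WT library. The summed nlp level was 2257, 2288 and 2182 TPM in WT and 2423, 2388 and 2387 TPM in the mutant, where all 3 mutant libraries lay above all 3 WT libraries. Few genes held much of the nlp and ins sums: nlp-33, nlp-24 and nlp-36 made up 62.6% of the nlp sum, and ins-27, ins-37 and ins-17 made up 43.1% of the ins sum. The flp sum was spread more evenly, with 25.4% from flp-28, flp-24 and flp-1.

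The largest rise among the peptide genes was that of nlp-67 (R11.2, WBcel235 chromosome X 16184369 to 16185722), a neuropeptide-like protein gene. WT replicates 1, 2 and 3 gave 3.54, 3.004 and 4.33 CPM, and the mutant replicates gave 15.1, 13.9 and 16.1 CPM. Every mutant library was above every WT library by a wide margin, and WT replicate 2 was not unlike the other WT libraries. The fitted rise was 4.15-fold (log2 change 2.05, SE 0.16, 95% interval 1.65 to 2.45, n = 3 and 3, edgeR adjusted p = 0.000955). It was the only member to pass the study's thresholds, a log2 change over 2 with p under 0.01 and adjusted p under 0.1, which 2.62% of all tested genes passed upward and 0.421% downward.

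The insulin-like gene ins-7 (ZK1251.2, chromosome IV 9682011 to 9682845) encodes a DAF-2 agonist made in intestine and neurons. It was at 1.31, 1.62 and 1.30 CPM in WT and at 5.17, 4.12 and 4.77 CPM in the mutant. The groups were well separated, and the lowest mutant library was above the highest WT library. The rise was 3.32-fold (log2 change 1.73, SE 0.17, 95% interval 1.32 to 2.14, edgeR adjusted p = 0.00216). Both nlp-67 and ins-7 were called when any 1 library was left out, with adjusted p values of at most 0.0102 for nlp-67 and 0.0181 for ins-7. They were called in all 15 fits, and no other member was.

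The remaining called genes rested on less. For nlp-25 (Y43F8C.1, chromosome V 19606180 to 19608419), which is listed with the epidermal-type nlp genes, the values were 1.67, 0.703 and 1.16 CPM in WT and 2.73, 2.51 and 3.82 CPM in the mutant. The groups did not overlap, but the nearest libraries, WT replicate 1 and mutant replicate 2, were close beside the spread of each group. The log2 change was 1.35 (SE 0.34, 95% interval 0.51 to 2.19, edgeR adjusted p = 0.0415) and 1.09 without WT replicate 2 (adjusted p = 0.00472). The call was lost without WT replicate 3 or without any 1 mutant library, with adjusted p up to 0.136 and the log2 change between 1.15 and 1.47 in those fits. For nlp-36 (B0464.3, chromosome III 9488731 to 9489186), the values were 72.5, 79.9 and 74.4 CPM in WT and 93.3, 88.7 and 89.2 CPM in the mutant. All mutant libraries were above all WT libraries, by a small distance relative to the level. The rise was 1.20-fold (log2 change 0.26, SE 0.05, 95% interval 0.13 to 0.39, edgeR adjusted p = 0.0234). The nlp-36 call was lost when any 1 library other than WT replicate 2 was left out, with adjusted p up to 0.107, and under upper quartile scaling, where the log2 change was 0.22. Exons of nlp-36 overlap those of dars-1, an aspartyl-tRNA synthetase gene on the opposite strand, and the strand setting of the quantification is not given in the sources used here. The mean dars-1 level was 307 CPM in WT and 283 CPM in the mutant (log2 change -0.11, edgeR adjusted p = 0.131), opposite in sign to nlp-36.

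**Figure D2:**
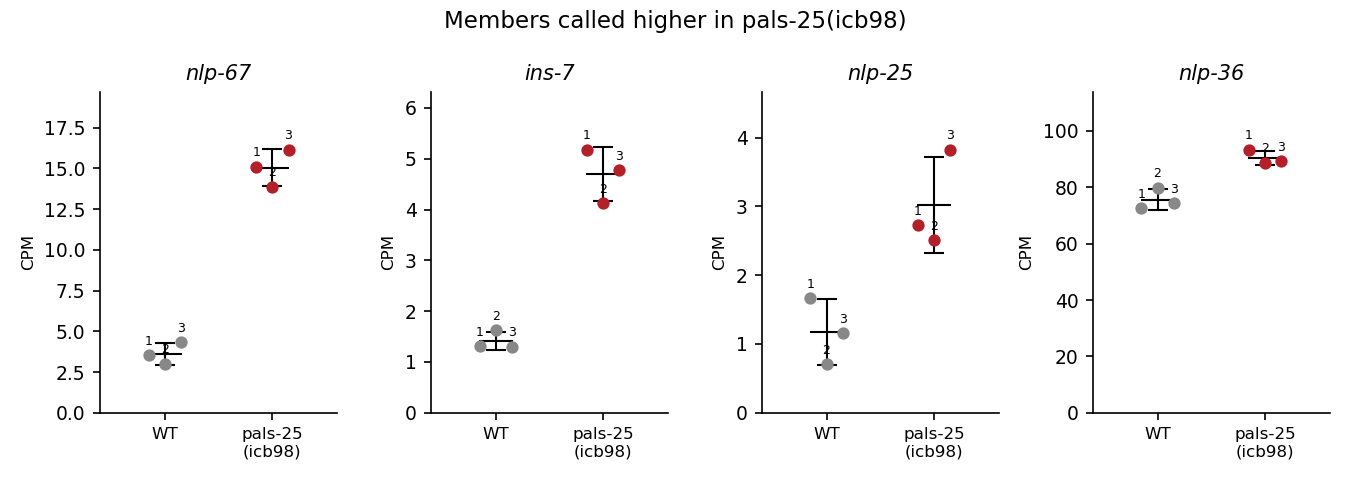
Level of each of the 4 called genes in CPM in the 3 WT (grey) and 3 pals-25(icb98) (red) libraries, with replicate numbers beside the points. For nlp-67, ins-7 and nlp-36 the gap between groups is wider than either group's spread. For nlp-25 the nearest WT and mutant points, at 1.67 and 2.51 CPM, are less far apart than either group's spread. The nlp-36 points run from 72.5 to 93.3 CPM.

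The flp family showed the least change. None of its 30 tested genes was called by edgeR, with 1 higher and 0 lower at an unadjusted p under 0.05. DESeq2 called 1 higher, flp-28, and limma-voom called 0. The 95% interval of the log2 change lay within 1 of 0 for all 30 genes and within 0.5 of 0 for 25 of them. Fitted values were nonetheless above 0 for 24 of the 30 (80.0%), against 50.6% of all tested genes. Groups did not overlap at 4 flp genes (13.3%), against 49.3% of all tested genes. The gene nearest the threshold was flp-28 (chromosome X), also the most abundant flp gene at 88.2 TPM. It was at 36.99, 29.4 and 35.9 CPM in WT and 44.1, 41.6 and 39.9 CPM in the mutant. Here WT replicate 2 was the lowest library, and the groups did not overlap. The log2 difference of flp-28 was 0.30 (SE 0.10, edgeR adjusted p = 0.0851), it passed under DESeq2 (adjusted p = 0.0382), and it passed edgeR without WT replicate 2 at a smaller difference of 0.20 (adjusted p = 0.0234). Without WT replicate 2, flp-12, flp-14 and flp-33 were called higher as well, at log2 changes of 0.24, 0.21 and 0.38. That fit called 19.3% of all genes higher.

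Several flp genes with well-known roles were not called, some of them picked for those roles after their values were seen. The log2 difference was 0.05 for flp-1 (adjusted p = 0.772), whose peptides modulate locomotion, and 0.07 for flp-24 (adjusted p = 0.641), which acts in stress-induced sleep, both being among the 3 most abundant of the family. These were 0.14 (adjusted p = 0.234) and 0.16 (adjusted p = 0.120) without WT replicate 2. The sleep-promoting gene flp-11 was at 21.4, 22.2 and 19.5 CPM in WT and 21.4, 22.5 and 20.4 CPM in the mutant. These values overlapped nearly fully, and the 95% interval of the log2 difference of flp-11 ran from -0.17 to 0.23. For flp-18, which encodes ligands of the NPR-1 receptor, the interval was -0.31 to 0.24, and for flp-21, another NPR-1 ligand gene, it was -0.20 to 0.65. The 1 flp gene too low to test, flp-23, had a single count in 1 mutant library.

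**Figure D3:**
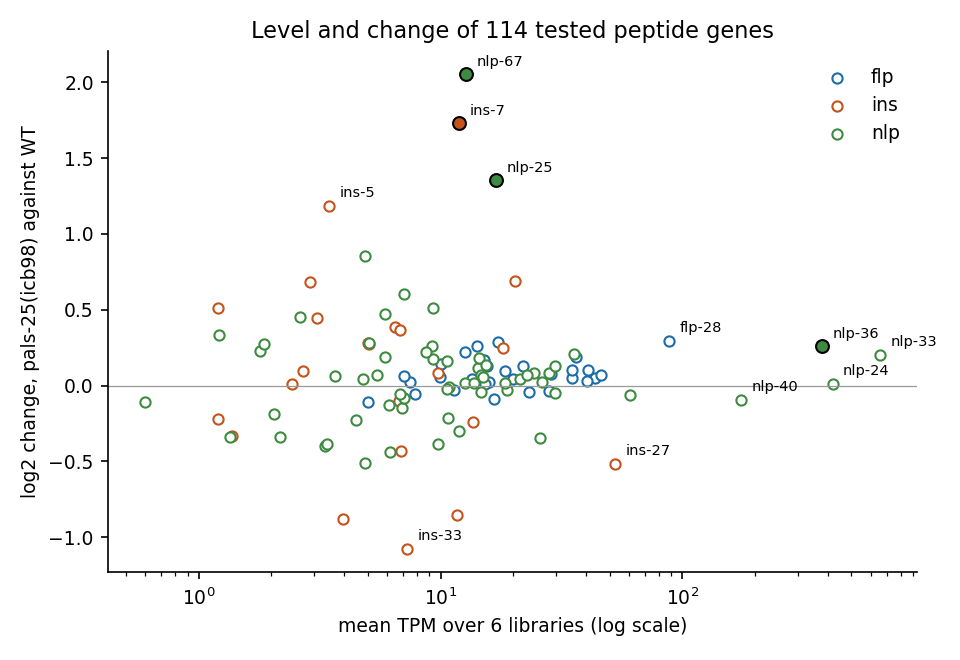
Log2 change in pals-25(icb98) against WT of each tested member, plotted against its mean level in TPM on a log axis and coloured by family. The flp genes lie in a narrow band around 0, and the 2 members with the largest change, nlp-67 and ins-7, are both far below the most abundant member, nlp-33, at 657 TPM.

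The ins family was the most variable and the least expressed. Of its genes, ins-7 included, 3 were higher and 3 lower at an unadjusted p under 0.05, and 11 of the 23 tested genes (47.8%) had groups that did not overlap, 7 with the mutant above and 4 below, close to the 49.3% of all tested genes. The 95% interval was within 1 of 0 for 10 of the 23 genes. For the others it reached past 2-fold, and these include the called gene ins-7 (1.32 to 2.14 on the log2 scale). The part of sequencing depth in the width of these intervals was not tested. The most abundant member, ins-27 (chromosome I, 52.8 TPM), was at 7.80, 13.5 and 10.4 CPM in WT and 7.32, 7.75 and 7.08 CPM in the mutant. All mutant libraries were below all WT libraries, though mutant replicate 2 nearly met WT replicate 1, and the WT libraries were widely spread. The log2 difference of ins-27 was -0.51 (edgeR adjusted p = 0.132), and it passed as lower in edgeR only without WT replicate 1 (adjusted p = 0.0491). It was -0.30 (adjusted p = 0.0886) without WT replicate 2.

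The next most abundant, ins-37, was at 9.44, 3.56 and 8.04 CPM in WT and 11.7, 10.1 and 12.3 CPM in the mutant. All mutant libraries were above WT, and WT replicate 2 was far below the rest. The log2 difference was 0.69 (adjusted p = 0.219) with all libraries and 0.37 (adjusted p = 0.0235) without WT replicate 2. For ins-17, the third in level, it was 0.25 (adjusted p = 0.165). The tested gene nearest the threshold was ins-3 (chromosome II), at 1.03, 1.28 and 1.28 CPM in WT and 1.89, 1.66 and 2.22 CPM in the mutant. The groups did not overlap, and the log2 difference of ins-3 was 0.68 (edgeR adjusted p = 0.0529, DESeq2 adjusted p = 0.0138). It passed edgeR without WT replicate 2, at 0.74 (adjusted p = 0.0213).

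Many ins genes stand beside each other in the genome. With a gap of at most 25000 bases, 25 of the 38 fell into 7 runs of neighbours, against 3 of the flp genes and 8 of the nlp genes. The run on chromosome II from 5988524 to 6011321 holds ins-2, ins-3, ins-4, ins-5, ins-6 and ins-20. The ins-4 and ins-6 genes encode DAF-2 agonists that act in the dauer decision. In this run the log2 differences were 0.68 for ins-3, 0.45 for ins-4, 1.19 for ins-5 and -0.10 for ins-6. edgeR called none of them with all libraries, DESeq2 called ins-3 and ins-5, and limma-voom called ins-5.

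The largest of these, ins-5, was at 0.801, 1.70 and 0.738 CPM in WT and at 2.52, 2.55 and 2.28 CPM in the mutant. The mutant libraries were alike and above all WT libraries, and WT replicate 2 was about midway. The edgeR adjusted p of ins-5 was 0.0560 with all libraries, 0.0333 by limma-voom and 8.10e-05 without WT replicate 2, where the log2 difference was 1.66. Its neighbour ins-6 was at 3.04, 2.96 and 2.88 CPM in WT and 2.52, 2.71 and 3.05 CPM in the mutant, with overlapping groups. The run on chromosome I from 14012369 to 14037777 holds 7 ins genes, of which 6 were tested, 3 had fitted values above 0 and 3 below, and none was called by edgeR with all libraries.

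Next to ins-7 on chromosome IV lies ins-8 (9680337 to 9680941), whose exons do not overlap those of ins-7. The WT libraries held 0, 0 and 0 estimated counts of ins-8, and the mutant libraries held 8, 7 and 5. These totals were too low for the filter on counts. Against a floor of 3 counts over the WT group, ins-8 was 6.55-fold higher in the mutant. That fold leaves out the counting error of the mutant total. With no filter, where 7.17% of all genes were called higher, ins-8 passed the edgeR test (adjusted p = 0.0335). It was singled out after its values were seen.

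**Figure D4:**
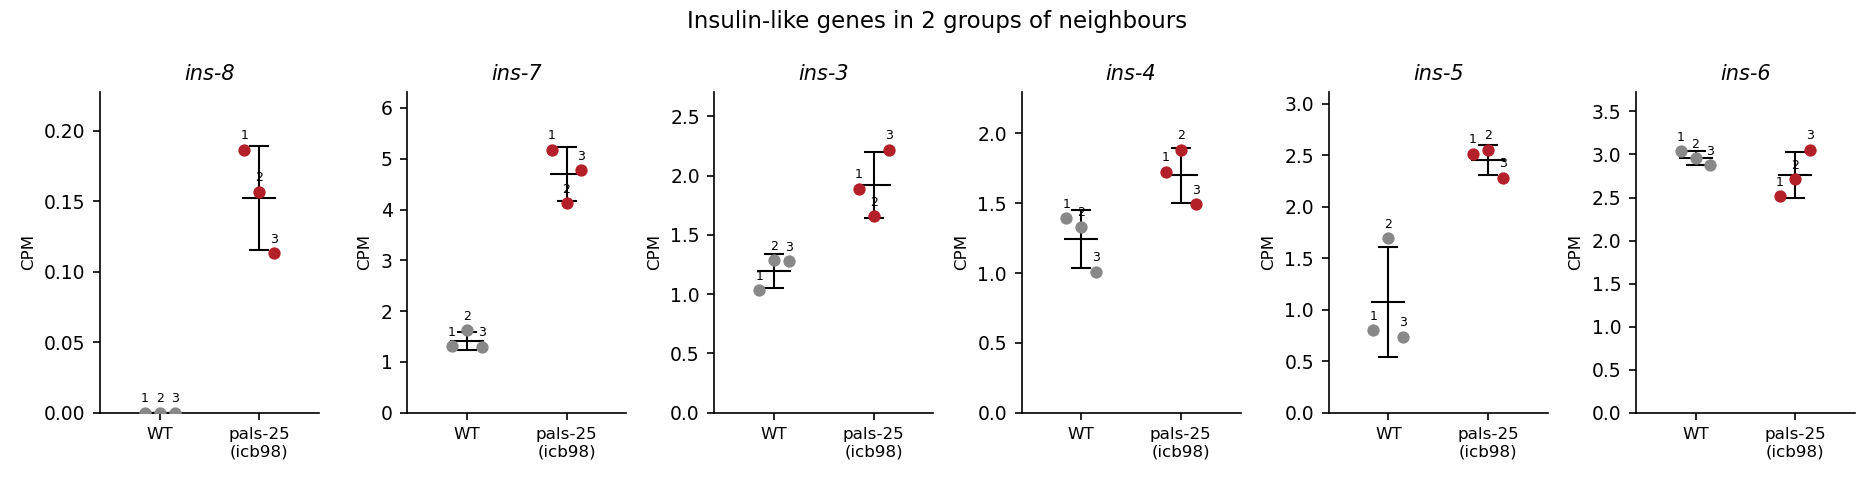
Level in CPM of neighbouring ins genes in the 3 WT (grey) and 3 pals-25(icb98) (red) libraries, with replicate numbers beside the points. The ins-7 points are separated by genotype (1.30 to 1.62 against 4.12 to 5.17 CPM), ins-8 is at 0 in all WT libraries, and ins-6 overlaps between the groups.

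The lowest fitted values of the family belonged to ins-33 and ins-35, named here after their values were seen. ins-33 was at 2.72, 6.15 and 3.15 CPM in WT and 1.96, 2.20 and 1.54 CPM in the mutant, a log2 difference of -1.08 (edgeR adjusted p = 0.0829). The groups did not overlap, WT replicate 2 was far above the rest, and the difference was -0.63 without it, where ins-33 was called. ins-35 was at 1.98, 6.64 and 2.53 CPM in WT and 1.79, 2.78 and 1.58 CPM in the mutant, with overlapping groups and a log2 difference of -0.85 (edgeR adjusted p = 0.289). WT replicate 2 was again far above the rest, and without it the difference was -0.13 (adjusted p = 0.723). WT replicate 2 was more than 0.5 on the log2 scale away from the mean of the 6 libraries at 7 of the 23 tested ins genes. This share, 30.4%, was near the 26.6% of all tested genes in the same library.

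Beyond the 3 called genes, no nlp gene passed the edgeR test with all libraries. None of its 61 tested genes was lower by edgeR, with 0 lower and 6 higher at an unadjusted p under 0.05, and neither DESeq2 nor limma-voom called one lower. With WT replicate 2 left out, edgeR called 8 nlp genes higher, adding nlp-15, nlp-26, nlp-43, nlp-62 and nlp-69, and 1 lower, nlp-2 (log2 change -0.56, adjusted p = 0.0247). That fit called 19.3% of all genes higher and 18.1% lower. With all libraries, the groups did not overlap at 13 nlp genes (21.3%), 12 with the mutant above, against 49.3% of all tested genes. The most abundant nlp gene, nlp-33, encodes an infection-regulated peptide of the epidermis. It was at 165, 95.6 and 141 CPM in WT and 161, 147 and 154 CPM in the mutant. WT replicate 2 was the lowest library, and the groups overlapped. The log2 difference of nlp-33 was 0.20 (adjusted p = 0.481) with all libraries and 0.01 (adjusted p = 0.933) without WT replicate 2. That of nlp-24, the second in level at 417 TPM, was 0.01 (adjusted p = 0.933), a value that fell below 0 under 5 of the alternatives and was 0.12 (adjusted p = 0.0914) without WT replicate 2.

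The tested nlp gene nearest the threshold was nlp-62, at 0.780, 0.848 and 0.812 CPM in WT and 1.33, 1.93 and 1.15 CPM in the mutant. The groups did not overlap, with the WT libraries tight and mutant replicate 2 the highest. The log2 difference was 0.85 (edgeR adjusted p = 0.0563, DESeq2 adjusted p = 0.0182), and without WT replicate 2 it passed edgeR at 0.88 (adjusted p = 0.0279). Genes with well-known roles, chosen for them after their values were seen, were not called either. The gene nlp-40, whose peptide is released from the intestine to time defecation, was at 96.0, 109 and 99.1 CPM in WT and 95.1, 98.9 and 90.8 CPM in the mutant, and its interval was -0.25 to 0.06 on the log2 scale. The cholecystokinin-like gene nlp-12 had a log2 difference of 0.21 (interval -0.03 to 0.46) with all mutant libraries above all WT libraries.

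One nlp gene changed direction with a single library. nlp-26 neighbours nlp-25 on chromosome V. It was at 2.95, 14.97 and 4.23 CPM in WT and 5.38, 6.41 and 5.63 CPM in the mutant. WT replicate 2 was the highest of the 6 libraries and WT replicates 1 and 3 were the lowest. The log2 difference of nlp-26 was -0.34 (adjusted p = 0.708) with all libraries and 0.70 (adjusted p = 0.00576) without WT replicate 2.

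**Figure D5:**
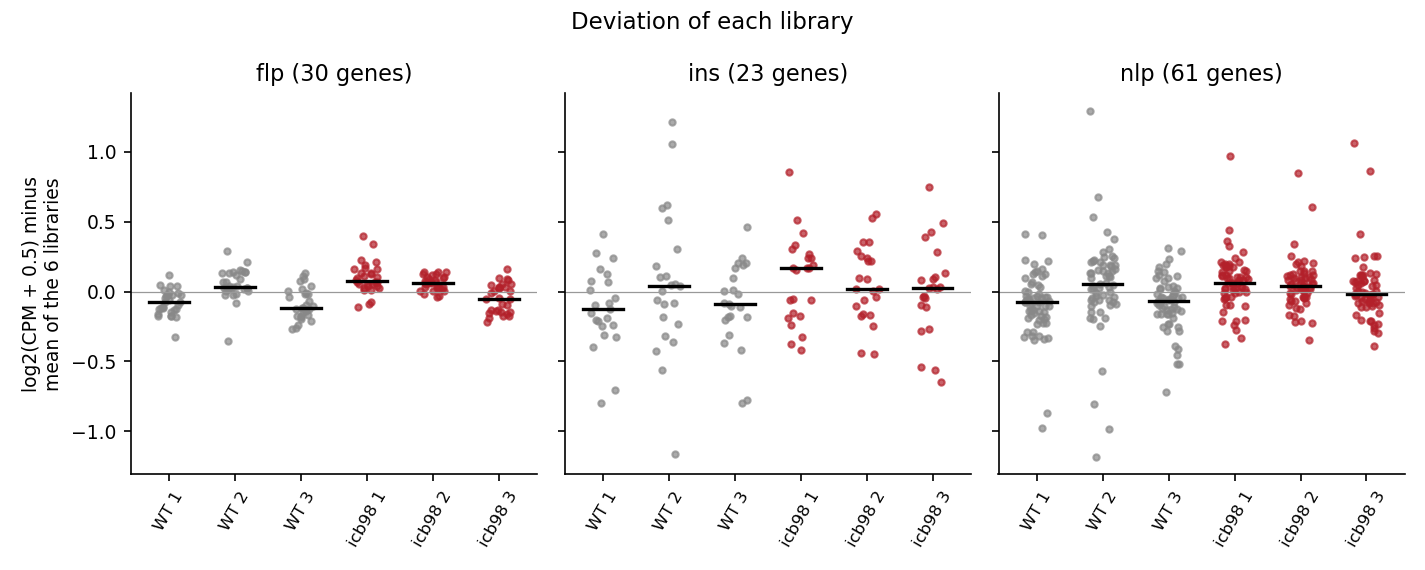
Deviation of each tested member from its mean over the 6 libraries, on the log2 scale, by library and family. The flp deviations stay within 0.5 for all 30 tested genes in all 6 libraries, whereas 7 of 23 ins genes lie beyond 0.5 in WT replicate 2. Over all tested genes, not drawn here, 26.6% lie beyond 0.5 in WT replicate 2.

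WT replicate 2 was the highest or the lowest of the 6 libraries at 50 of the 114 tested members (43.9%), the highest at 37 of them. The share over all tested genes was 65.3%. By family it was 12 of 30 flp, 9 of 23 ins and 29 of 61 nlp genes. Relative to the other WT libraries, WT replicate 2 was higher by a median of 0.17 for flp, 0.11 for ins and 0.15 for nlp on the log2 scale, against -0.01 over all tested genes. Marker lists of most tissues were also higher in this library, by a median of 0.26 for neurons, 0.43 for pharynx, 0.29 for epidermis, 0.20 for intestine and 0.05 for body wall muscle, while germline markers were at -0.64.

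Members too low to test numbered 20: 1 flp, 15 ins and 4 nlp genes. No library held more than 36 estimated counts of any of them, and ins-13, ins-19 and nlp-39 had none in any library. Against a floor of 3 counts over the empty group, ins-15 was 2.38-fold lower in the mutant (7 WT counts, 0 mutant counts). On the same floor, ins-20 was 1.31-fold higher (0 and 4 counts). These totals are too small for a test, and neither fold is a lower limit, as counting error in the other group is left out.

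Transcripts of the same gene were also looked at singly. Of the members, 36 had more than 1 listed transcript, 84 transcripts in all. Of these 62 were tested and 0 were called by edgeR, against 6.12% of all transcripts tested, where the reads of overlapping transcripts are divided by the model and single transcripts are less certain than gene totals. Those not called include the transcripts of ins-7, which was called as a gene. Exons of 19 members overlapped another listed gene.

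With all libraries, genes of the machinery that makes and releases peptides were called about as often as the 20.5% of all tested genes. Among 9 processing genes, 1 rose and 1 fell (22.2%). The convertase gene egl-3, which cuts most neuropeptide precursors, was at 112, 132 and 103.5 CPM in WT and 131, 121 and 115 CPM in the mutant, with overlapping groups and a log2 difference of 0.08 (edgeR adjusted p = 0.603), which was 0.18 (adjusted p = 0.0356) without WT replicate 2. The carboxypeptidase E gene egl-21 (-0.01, adjusted p = 0.966) and the convertase chaperone gene sbt-1 (0.06, adjusted p = 0.616) did not pass either. The processing gene that rose was bli-4, a convertase with a role in the cuticle (log2 change 0.35, adjusted p = 0.0281), and the one that fell was kpc-1, a furin-like convertase (-0.49, adjusted p = 0.0178). The largest difference in the list was that of pamn-1, a peptide amidation gene picked after its values were seen, at 25.8, 43.9 and 28.1 CPM in WT and 19.04, 20.9 and 18.01 CPM in the mutant. WT replicate 2 was the highest library, the groups did not overlap, and the log2 difference was -0.75 (adjusted p = 0.0565), or -0.48 (adjusted p = 0.000671) without that library. Without WT replicate 2, 4 of the 9 processing genes were called higher and 2 lower, against 19.3% and 18.1% of all genes.

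Among 11 genes of dense core vesicles, tbc-8 rose and vps-50 fell (18.2%). tbc-8, which encodes a Rab GTPase-activating protein of vesicle maturation, was at 4.996, 4.17 and 3.94 CPM in WT and 12.2, 10.9 and 11.2 CPM in the mutant. The groups were far apart, and the log2 change was 1.39 (SE 0.13, edgeR adjusted p = 0.00212). For vps-50 it was -0.52 (adjusted p = 0.0173). The release factor gene unc-31 did not pass (-0.08, adjusted p = 0.580).

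Of 103 genes for peptide receptors measured, 94 were tested, 6 were higher and 2 lower (8.51%, against 20.5% of all tested genes), with a median log2 change of -0.05. The largest change was in npr-40, at 5.12, 2.98 and 4.85 CPM in WT and 15.9, 14.9 and 15.7 CPM in the mutant. The mutant libraries were all about equally far above WT, and the log2 change was 1.84 (SE 0.22, edgeR adjusted p = 0.00417). The other rises were in npr-38 (1.24), tkr-3 (0.80), npr-41 (0.71), npr-28 (0.59) and npr-5 (0.47), on the log2 scale. frpr-5 fell by 0.49 and sprr-2 fell by 0.61.

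Downstream of the insulin-like peptides, 11 signaling genes were tested, of which 2 were higher and 1 lower (27.3%, against 20.5% of all tested genes). The receptor gene daf-2 was at 51.1, 64.4 and 56.2 CPM in WT and 57.5, 58.0 and 55.0 CPM in the mutant, with overlapping groups and a log2 difference of -0.01 (adjusted p = 0.940). The FOXO transcription factor gene daf-16 was at a log2 difference of 0.04 (adjusted p = 0.556). Among the called genes, aap-1, the adaptor subunit of PI3-kinase, rose (log2 change 0.27, edgeR adjusted p = 0.0411), and the kinase gene pdk-1 fell (-0.56, adjusted p = 0.0393). Of the 15 called genes in these lists, 2, tbc-8 and npr-40, stayed called when any 1 library was left out. Without WT replicate 2, the counts were 2 higher and 1 lower for dense core vesicles, 6 and 2 for receptors, and 3 and 1 for insulin signaling. The same fit called 37.4% of all genes, 19.3% higher and 18.1% lower.

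Another 7 peptide genes with other names held no call by edgeR, with 0 at an unadjusted p under 0.05 in either direction and 0 by DESeq2 or limma-voom. Without WT replicate 2, 1 of the 7 was called higher, against 19.3% of all genes. The insulin-like gene daf-28, a DAF-2 agonist, was at 11.2, 9.67 and 11.7 CPM in WT and 7.90, 10.4 and 9.73 CPM in the mutant. The groups overlapped and the log2 difference was -0.22 (edgeR adjusted p = 0.334). For pdf-1, a gene of pigment-dispersing factor type peptides, it was 0.19 (adjusted p = 0.243) with all libraries and 0.28 (adjusted p = 0.0177) without WT replicate 2.

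Markers of the tissues that make these peptides were read beside them. Over all tested genes, edgeR called 20.5% with all libraries and 37.4% without WT replicate 2. Of 22 neuronal markers, 20 were measured and tested, and 0 were called by edgeR, with 2 higher and 1 lower at an unadjusted p under 0.05. DESeq2 called 1 lower and limma-voom 0. Without WT replicate 2, 5 were called higher and 1 lower. Their summed level was 292 to 363 TPM in WT and 319 to 345 TPM in the mutant, so the groups overlapped. Of 7 intestinal markers, which share a tissue with ins-7, 2 rose (ifb-2 and asp-1; 4 without WT replicate 2), and the summed level was 4172 to 4918 TPM in WT and 5380 to 5853 TPM in the mutant. Of 6 epidermal markers, which share a tissue with nlp-25 and nlp-33, col-12 rose and rol-6, wrt-2 and lon-3 fell. Only 1 of the 6, col-12, had a fitted value above 0, and the median log2 change was -1.14. Their summed level was nonetheless higher, at 1344 to 1500 TPM in WT and 1709 to 1868 TPM in the mutant. The part of these tissues in the changes of ins-7 and nlp-25 was not tested. Body wall muscle, pharynx and germline markers were all detected, with 1 of 5 higher, 1 of 5 lower and 0 of 4 called by edgeR. Of the germline markers, 1 was higher at an unadjusted p under 0.05 and by DESeq2, and limma-voom called 0.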

How the data were processed

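Whole-animal RNA of L4 larvae (3 WT and 3 pals-25(icb98) samples) was extracted with TRIzol and sequenced. The sources differ on the sequencing provider. The authors estimated transcript abundance with kallisto against the WS235 transcriptome and tested it with sleuth. Tool versions, read length and strandedness were not given in the sources used here. Each deposited table lists, for every transcript, the estimated count the authors obtained, beside its length and effective length in bases. sleuth was not run here.

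Estimated counts of 35862 transcripts were summed to 22010 genes by sequence name and rounded before testing. Of these, 21839 (99.2%) were matched to the Ensembl WBcel235 annotation, whose coordinates count from 1. TPM was computed here from estimated counts and effective lengths. edgeR 4.0.16 in R 4.3.3 was run over all genes with TMM scaling, filterByExpr at a minimum count of 10, a robust quasi-likelihood F-test and the group as the only term. Calls required an adjusted p (Benjamini-Hochberg) under 0.05. Standard errors were derived from the F statistic, and intervals are at 95%. Folds against a group at 0 use a group-wide floor of 3 counts, which covers the counting error of that group only. Libraries held 40709626 to 47297002 estimated counts, and precision falls with the count of a gene.

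The text names every called member, the 3 members of highest mean TPM in each family and the tested member nearest the threshold in each, the called genes of the pathway lists except 1, which is not reported here, and egl-3, egl-21, sbt-1, unc-31, daf-2, daf-16, daf-28 and pdf-1. Other genes were named after their values were seen. The members and the 12 gene lists (peptide processing, dense core vesicles, insulin signaling, peptide receptors, other peptide genes, epidermal-type nlp genes, and markers of neurons, epidermis, intestine, body wall muscle, pharynx and germline) were chosen with earlier results of these data known. The epidermal-type nlp list held 5 genes, of which 4 were tested and nlp-25 alone was called. Alternatives were DESeq2 1.42.0, limma-voom (limma 3.58.1), RLE and upper quartile scaling, other filters on counts, length-scaled counts, a replicate block, the study's thresholds and leaving out each library. Single-transcript tests were added after the data were seen.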

Additional observations from a re-analysis of the deposited data

How the results depend on the processing

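nlp-67 and ins-7 kept their calls and directions under all alternatives tried on gene totals, except that ins-7 is under the fold threshold of the study. Tested singly, the ins-7 transcripts ZK1251.2a and ZK1251.2b had log2 changes of 1.86 and 1.64. Neither was called (edgeR adjusted p = 0.327 and 0.145). Leaving out 1 library gave 0 to 4 flp genes higher, 1 to 4 ins genes higher and 0 to 1 lower, 1 to 8 nlp genes higher and 0 to 1 lower, and 2 to 16 members higher and 0 to 2 lower in all. Over all genes it gave 682 to 3165 higher and 330 to 2972 lower, beside 1584 and 1729 with all libraries. The upper ends came from leaving out WT replicate 2, without which nlp-26 also turned from -0.34 to 0.70 on the log2 scale. Its value was -0.73 to 0.70 over the libraries left out, 0.04 by limma-voom and 0.01 with the replicate block. DESeq2 called 1 flp gene higher, 3 ins genes higher and 1 lower, and 8 members higher and 1 lower in all. limma-voom called 2 ins genes higher, and so did edgeR with no filter on counts. The study's thresholds gave 0 ins genes, 1 nlp gene and 1 member higher, with 423 genes higher and 68 lower over all genes. The cause of these shifts was not tested, and the thresholds are stricter by construction.

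Replicate numbers appear in both groups without a stated link, so the libraries were taken to share only a number. For each gene, the log2 level of each library was taken as its deviation from the mean of its own group. Across genes, these deviations correlated at 0.08, 0.25 and 0.13 between same-numbered libraries, and from -0.24 to 0.15 between differently numbered ones. Whether same-numbered libraries share a batch was not tested. Not every library correlated best with its own number. With a replicate block, 1 nlp gene (nlp-67) and 2 members in all were called higher, and over all genes 1184 were higher and 1010 lower. nlp-25 (adjusted p = 0.0564) and nlp-36 (adjusted p = 0.0683) missed the edgeR threshold there. The results for single genes stayed on their side of the threshold in 359 cases, passed it in 20 and lost it in 12. In 1 more case, nlp-26 without WT replicate 2, the value passed it with its sign turned. Counts limit the ins family most, with 15 of 38 genes untested.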
